A study of Rattus norvegicus with 6 samples.

Results

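Genes of nucleotide digestion and nucleoside salvage, 10 in number, were followed in rat ileum after intestinal bypass. They are Enpp3, Enpp1, Entpd1, Nt5e, Slc28a1, Slc28a2, Slc29a1, Ada, Upp1 and Xdh, and they were taken by gene symbol. The row of each gene was to be chosen by its mean level over all 6 arrays, without regard to group, where a gene had several rows. Each of the 10 genes had exactly 1 row, none of them shared with another symbol, so all 10 of 14506 genes with a single symbol were measured and no filter on low values was applied. The set was put together with earlier results of these data known, in which Enpp3 was among the largest falls. The calls below are therefore given as a description, and their share among the 10 supports nothing.

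The samples are ilea of Zucker fa/fa rats, which carry a defective leptin receptor on both alleles and are obese. The rats were 20 weeks old at surgery. In 3 rats a duodenum-jejunum bypass (DJB) joined the lower jejunum to the start of the duodenum, so that food skipped the duodenum and upper jejunum, while bile and pancreatic juice rejoined it downstream. In 3 rats a sham operation cut the bowel and closed it again in its normal course. All 6 rats share the fa/fa genotype and the abdominal surgery, no lean animals are among them, and the ileum was taken 14 days after the operation. RNA of each rat went on 1 Affymetrix rat whole-transcript array, and levels are log2 values after RMA, a method that corrects background, equalises the arrays and summarises the probes of a gene. Differences are DJB minus sham in log2 units, with the standard error (SE) of a limma fit to 3 arrays per group. The words rose and fell are kept for genes with a limma adjusted p under 0.05 among all 14506 genes. Each row has probes of its own, so levels are compared between arrays and never between genes.

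Nucleic acids in food are cut to nucleotides in the gut lumen, and enzymes on the brush border of enterocytes then strip pyrophosphate and phosphate to leave nucleosides. Concentrative transporters on the luminal face carry nucleosides into the cell with sodium, and equilibrative transporters let them pass down their gradient. Inside the enterocyte, nucleosides are deaminated, split to bases, reused for nucleotides or oxidised to uric acid. The same ectoenzymes also act on ATP released by cells, which yields adenosine as a signal.

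After DJB, 4 of the 10 genes fell, 1 ectoenzyme, 1 transporter and 2 enzymes inside the cell. They were Enpp3, which hydrolyses extracellular nucleotides, Slc28a1, the concentrative transporter that prefers pyrimidine nucleosides, Ada, which deaminates adenosine, and Upp1, which splits uridine. The falls were 7.83-fold for Enpp3, 2.96-fold for Slc28a1, 2.53-fold for Ada and 2.33-fold for Upp1. None of the 10 rose, by the limma adjusted p or at an unadjusted p under 0.05. Over all genes tested, 0.379% fell and 0.393% rose. In each of the 4 genes all DJB values lay below all sham values, which held for 6.56% of all genes, while the groups overlapped in the other 6 genes. All 3 DJB values lay above all sham values in none of the 10, against 14.5% of all genes. The median difference was -0.45 over the 10 genes, -0.39 over the 9 genes without Enpp3, and 0.05 over all genes.

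**Figure D1:**
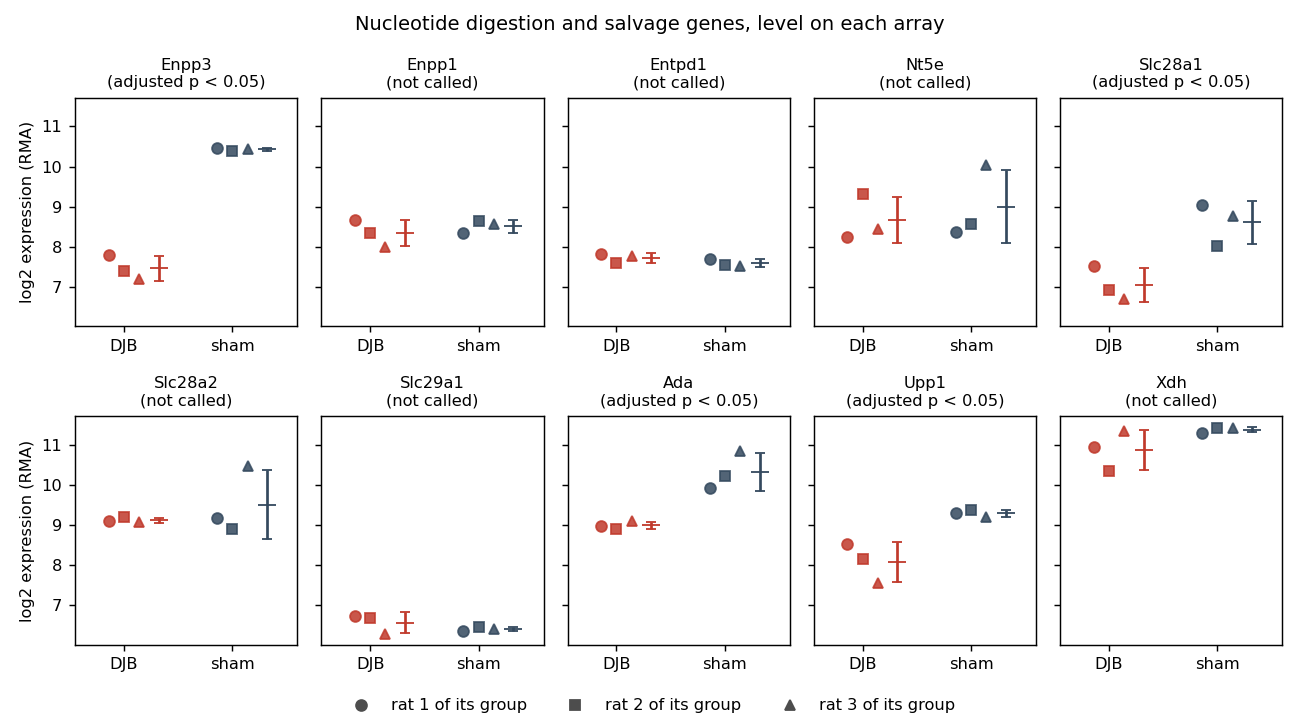
Level of each of the 10 genes on every array, as log2 expression after RMA, with DJB arrays in red left of sham arrays in dark blue; symbols mark the rat number within a group, and the bars beside them give the mean ± SD (n = 3). Enpp3, Slc28a1, Ada and Upp1 are lower on all 3 DJB arrays, and sham 3 stands above the other sham arrays for Nt5e and Slc28a2.

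Enpp3 encodes a membrane-bound ectoenzyme that cleaves nucleotides at the phosphodiester bond and sits on the enterocyte surface in the rat gut. It had 7.79, 7.40 and 7.19 in DJB rats 1 to 3, against 10.47, 10.39 and 10.43 in sham rats 1 to 3. The sham arrays were nearly equal to one another, and the highest DJB array lay 2.60 below the lowest sham array. The mean was 7.46 ± 0.31 in DJB rats and 10.43 ± 0.04 in sham rats (SD, n = 3 each). The difference was -2.97 ± 0.15 (SE, limma adjusted p = 5.2e-05), the 3rd lowest of all 14506 differences. The fall was called without any 1 of the 6 arrays, with differences between -3.14 and -2.83.

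The start of Enpp3 is shown because it carries the largest change among the 10 genes. The sequences here and below run from 250 bases before the gene's start to 50 after it, come from RefSeq on the assembly GRCr8, and were found for 9 of the 10 genes, with Enpp1 missing. The promoter of Enpp3 lies at chr1:22382739-22383038 on the plus strand. Capitals, where there are any, mark a motif searched on both strands: AGATAA of GATA factors, TTTATG of CDX factors, GTTAAT of HNF1, CAAAGTCCA of HNF4, and the sterol regulatory element TCACNCCAC. None of these is found in the Enpp3 window, whose GC content is 41.3%, against a median of 51.7% over 33469 promoters.
Enpp3: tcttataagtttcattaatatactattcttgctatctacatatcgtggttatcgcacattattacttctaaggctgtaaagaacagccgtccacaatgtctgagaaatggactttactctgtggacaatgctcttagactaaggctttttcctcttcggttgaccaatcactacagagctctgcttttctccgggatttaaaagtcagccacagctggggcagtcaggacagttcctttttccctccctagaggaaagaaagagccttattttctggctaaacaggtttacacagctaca

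Enpp1, the next protein-coding gene after Enpp3 in the RefSeq order of chromosome 1, encodes a related ectoenzyme that turns ATP into AMP and pyrophosphate. It had 8.66, 8.35 and 8.002 in DJB rats 1 to 3, against 8.34, 8.65 and 8.56 in sham rats 1 to 3. The groups overlapped, and the difference of -0.17 ± 0.16 was not called (limma adjusted p = 0.683), with a 95% interval of -0.55 to 0.20. On each array the Enpp3 value minus the Enpp1 value was -0.87, -0.95 and -0.81 in DJB rats and 2.13, 1.74 and 1.88 in sham rats. These did not overlap between the groups, and the change of Enpp3 minus that of Enpp1 was -2.80. An exact two-sided permutation test gave p = 0.1, the smallest that 3 against 3 arrays allow. After adjustment over the 2 pairs of genes compared, the permutation p was 0.2. The pair was chosen after its values were seen, with Enpp3 known as a large fall, so this p supports nothing. Med23, a Mediator subunit gene on the other side of Enpp3, had a difference of -0.29 ± 0.09 and was not called (limma adjusted p = 0.210). It had 7.98, 7.89 and 7.84 in DJB rats, against 8.19, 8.23 and 8.15 in sham rats. These groups did not overlap, and 6.56% of all genes had every DJB value below every sham value.

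Entpd1 encodes the ectoenzyme that removes phosphates from extracellular ATP and ADP, known chiefly from vessels and immune cells. It had 7.82, 7.58 and 7.76 in DJB rats, against 7.70, 7.55 and 7.52 in sham rats. The groups overlapped, and the difference of 0.13 ± 0.10 was not called (limma adjusted p = 0.625, 95% interval -0.11 to 0.36). Nt5e encodes the ectoenzyme that turns AMP into adenosine. Its levels were 8.24, 9.31 and 8.45 in DJB rats, against 8.36, 8.58 and 10.04 in sham rats. DJB 2 and sham 3 stood above the other arrays of their groups. The difference of -0.33 ± 0.42 was not called (limma adjusted p = 0.771), its 95% interval ran from -1.28 to 0.62, and without sham 3 it was 0.20.

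**Figure D2:**
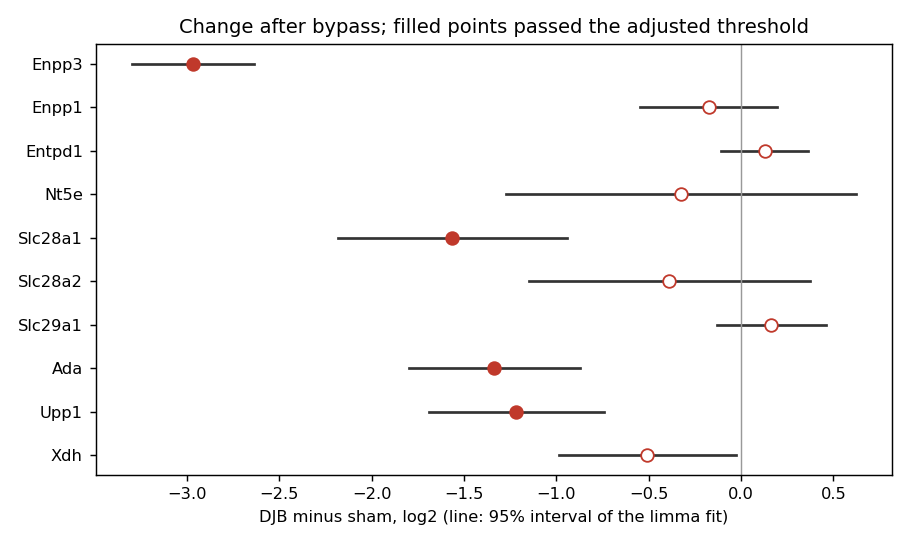
Difference DJB minus sham on the log2 scale for the 10 genes, with the 95% interval of the limma fit as a line; filled points passed the adjusted threshold. The 4 filled points lie between -2.97 and -1.22, and the intervals of Enpp1, Entpd1, Nt5e, Slc28a2 and Slc29a1 include 0.

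Among the transporters, Slc28a1 fell. It had 7.52, 6.91 and 6.70 in DJB rats, against 9.03, 8.02 and 8.78 in sham rats. Both groups were spread widely, by 0.82 among DJB rats and 1.02 among sham rats, and the gap between DJB 1 and sham 2 was 0.49. The mean was 7.04 ± 0.43 in DJB rats and 8.61 ± 0.53 in sham rats (SD, n = 3 each), a difference of -1.56 ± 0.27 (SE, limma adjusted p = 0.0423). The call ended without DJB 2, DJB 3, sham 1 or sham 3 (adjusted p up to 0.173), with differences between -1.86 and -1.35 over the 6 left-out arrays. It also ended with trend and robust variance (adjusted p = 0.109) and with all rows of the table tested (adjusted p = 0.0888).

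Slc28a2 encodes the concentrative transporter that prefers purine nucleosides. It had 9.10, 9.20 and 9.08 in DJB rats, against 9.17, 8.90 and 10.48 in sham rats. The DJB arrays were close together, and sham 3 stood 1.32 above the next sham array. The difference of -0.39 ± 0.34 was not called (limma adjusted p = 0.650, 95% interval -1.15 to 0.37), and without sham 3 it was 0.10. The Slc28a1 value minus the Slc28a2 value on each array was -1.58, -2.29 and -2.38 in DJB rats and -0.13, -0.88 and -1.71 in sham rats, so the groups overlapped. The change of Slc28a1 minus that of Slc28a2 was -1.18 (exact two-sided permutation p = 0.2, adjusted p = 0.2). Since this test cannot give a p under 0.1, it says nothing on whether the 2 transporters changed alike. These 2 pairs were chosen after their values were seen.

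Slc29a1, an equilibrative nucleoside transporter found in most cell types, had 6.74, 6.69 and 6.28 in DJB rats, against 6.37, 6.45 and 6.40 in sham rats. DJB 3 lay below all sham arrays and the other DJB arrays above them. The difference of 0.16 ± 0.13 was not called (limma adjusted p = 0.611, 95% interval -0.13 to 0.46). Its row, with a mean of 6.49, lay near the median of all rows, 6.11.

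The promoters of both concentrative transporters are shown because 1 of these genes fell and the other was not called. They hold the only matches to the searched motifs among the 9 promoters. Slc28a1, at chr1:144490373-144490672 on the plus strand, has AGATAA 22 bases after its start. Slc28a2, at chr3:129819538-129819837 on the plus strand, has AGATAA 132 bases before its start and the reverse of TTTATG 42 bases before it. AGATAA occurs on either strand in 11.6% of all 33469 promoters and TTTATG in 12.7%. The others occur in 7.45% (GTTAAT), 0.391% (CAAAGTCCA) and 1.12% (TCACNCCAC). A match describes the letters in the window and shows no binding.
Slc28a1: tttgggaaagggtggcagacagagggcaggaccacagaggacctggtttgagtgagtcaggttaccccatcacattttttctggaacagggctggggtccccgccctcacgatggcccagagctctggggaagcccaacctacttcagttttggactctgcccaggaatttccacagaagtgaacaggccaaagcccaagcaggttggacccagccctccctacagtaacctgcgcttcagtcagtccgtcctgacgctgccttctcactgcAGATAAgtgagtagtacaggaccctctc
Slc28a2: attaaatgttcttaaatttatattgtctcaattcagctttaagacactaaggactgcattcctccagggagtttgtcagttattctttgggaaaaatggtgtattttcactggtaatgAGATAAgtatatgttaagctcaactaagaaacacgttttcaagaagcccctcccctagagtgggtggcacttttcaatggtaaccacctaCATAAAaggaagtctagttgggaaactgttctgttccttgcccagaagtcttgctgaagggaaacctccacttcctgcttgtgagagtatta

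Inside the cell, 2 of 3 enzymes fell. Ada had 8.98, 8.91 and 9.10 in DJB rats, against 9.92, 10.22 and 10.85 in sham rats. The DJB arrays lay within 0.19 of one another, the sham arrays within 0.93, and the gap between the groups was 0.83. The mean was 8.99 ± 0.10 in DJB rats and 10.33 ± 0.48 in sham rats (SD, n = 3 each), a difference of -1.34 ± 0.21 (SE, limma adjusted p = 0.0252). Without sham 2 or any DJB array it was not called (adjusted p up to 0.105), and without sham 3, the highest array, the difference was -1.08 and still called. With all rows tested the adjusted p was 0.0577.

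Upp1 had 8.54, 8.15 and 7.56 in DJB rats, against 9.30, 9.39 and 9.21 in sham rats. The spread was among the DJB arrays, and the highest of them lay 0.67 below the lowest sham array. The mean was 8.08 ± 0.49 in DJB rats and 9.30 ± 0.09 in sham rats (SD, n = 3 each), a difference of -1.22 ± 0.21 (SE, limma adjusted p = 0.0401). Without DJB 2, or without any sham array, it was not called (adjusted p up to 0.141), and the difference lay between -1.45 and -0.96. Nor was it called with trend and robust variance (adjusted p = 0.0561) or with all rows tested (adjusted p = 0.0839).

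Xdh encodes the enzyme that oxidises hypoxanthine and xanthine to uric acid. It had 10.95, 10.34 and 11.34 in DJB rats, against 11.30, 11.42 and 11.42 in sham rats. DJB 3 lay within the range of the sham arrays, while DJB 1 and DJB 2 lay below it. The difference of -0.51 ± 0.21 was not called (limma adjusted p = 0.323). Its 95% interval of -0.99 to -0.03 excludes 0 before adjustment, and without DJB 2 the difference was -0.24.

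The promoters of Ada and Upp1 are shown because both enzymes fell while their starts differ in composition. The Ada promoter, at chr3:172842234-172842533 on the minus strand, is 64.3% GC with 22 CpG pairs. The Upp1 promoter, at chr14:88024420-88024719 on the plus strand, is 47.7% GC with 4 CpG pairs, and that of Enpp3 has 5. The median over all promoters is 7. None of the motifs is found in either window.
Ada: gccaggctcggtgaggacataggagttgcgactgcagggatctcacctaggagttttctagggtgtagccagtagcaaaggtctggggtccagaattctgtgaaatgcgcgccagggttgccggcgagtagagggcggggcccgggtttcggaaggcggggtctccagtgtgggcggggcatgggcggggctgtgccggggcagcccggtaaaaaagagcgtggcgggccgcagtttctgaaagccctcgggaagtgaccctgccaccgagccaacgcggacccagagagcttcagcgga
Upp1: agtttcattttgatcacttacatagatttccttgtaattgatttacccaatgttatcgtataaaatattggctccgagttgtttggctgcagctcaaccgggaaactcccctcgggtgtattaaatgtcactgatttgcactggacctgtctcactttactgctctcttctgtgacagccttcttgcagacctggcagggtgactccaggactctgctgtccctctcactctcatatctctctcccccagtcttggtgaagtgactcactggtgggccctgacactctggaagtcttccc

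**Figure D3:**
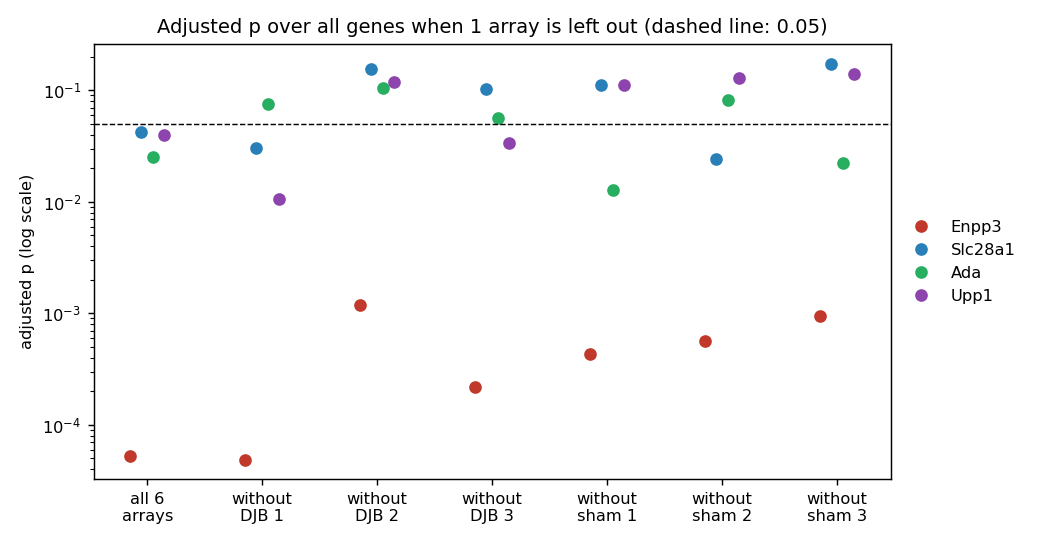
Adjusted p of the 4 genes that fell, on a log axis, with all 6 arrays and with each array left out in turn; the dashed line is 0.05. Enpp3 stays at or below 0.0012, and Slc28a1, Ada and Upp1 cross the line without some of the arrays.

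Of 116 genes in 6 lists of nucleotide metabolism, 104 were measured, 94 of them outside the 10, and by limma 0 of these 94 fell and 0 rose. At an unadjusted p under 0.05, 3 of the 94 were lower and 10 were higher, where 4.45% of all genes were lower and 9.82% were higher. The fit with an intensity trend and robust variance called 1 of the 94, Adss2, higher. The median difference of the 94 was 0.06, against 0.05 over all genes. All DJB values lay below all sham values in 8 of the 104 genes, 4 of them among the 10. They lay above all sham values in 14, none of them among the 10. Over all genes the shares were 6.56% below and 14.5% above. Of the genes named below, Dnase1, Pnp and Adal were among the 8. Enpp4, Alpl, Ampd2, Nt5c3a, Dut, Adss2, Umps and Atic were among the 14.

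Among the other ectoenzymes and luminal nucleases, 17 genes outside the 10 had a median difference of 0.03. Dnase1, a nuclease that cuts DNA, had 9.45, 9.33 and 8.75 in DJB rats, against 9.82, 9.90 and 10.08 in sham rats. The groups did not overlap, and the difference of -0.76 ± 0.17 was not called (limma adjusted p = 0.109). Enpp4, another member of the pyrophosphatase family, differed by 0.27 ± 0.11 and the tissue-nonspecific phosphatase gene Alpl by 0.20 ± 0.09 (limma adjusted p = 0.321 and 0.358). Alpl lay on a dim row, under the median of all rows.

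The 5 other transporters had a median difference of 0.11. Slc29a4, of the equilibrative family, differed by 0.26 ± 0.13, the concentrative transporter gene Slc28a3 by 0.14 ± 0.12 and Slc43a3, known in humans as a nucleobase transporter, by 0.11 ± 0.16, with limma adjusted p between 0.409 and 0.798. The rows of Slc28a3 and Slc29a4 were dim.

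Among 17 other purine salvage and breakdown genes the median difference was -0.02. Pnp, which splits inosine and guanosine in the step after Ada, had 10.27, 10.10 and 10.22 in DJB rats, against 10.36, 10.52 and 10.41 in sham rats. The groups did not overlap, but the difference of -0.23 ± 0.10 was not called (limma adjusted p = 0.321). Adal, a gene related to Ada, differed by -0.25 ± 0.10 and the AMP deaminase gene Ampd2 by 0.28 ± 0.11 (limma adjusted p = 0.298 and 0.318).

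Among 18 other pyrimidine salvage and breakdown genes the median difference was 0.06. Nt5c3a, a cytosolic pyrimidine nucleotidase, differed by 0.44 ± 0.12, Dut, which removes dUTP, by 0.27 ± 0.11, and the deoxycytidylate deaminase gene Dctd by 0.18 ± 0.12 (limma adjusted p = 0.168, 0.305 and 0.536).

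De novo synthesis genes had a median difference of 0.20, with 16 of 18 higher in DJB rats and none called by limma, where 61.7% of all genes were higher. At an unadjusted p under 0.05, 5 of the 18 were higher and 0 lower, against 9.82% and 4.45% of all genes. With another quantile normalisation 15 of the 18 were higher, with a median of 0.17, against 53.1% of all genes. Adss2, which makes the precursor of AMP, had 10.06, 10.01 and 10.10 in DJB rats, against 9.70, 9.77 and 9.62 in sham rats, a difference of 0.36 ± 0.09 (limma adjusted p = 0.135). Umps, which makes UMP, differed by 0.33 ± 0.10 and the purine synthesis gene Atic by 0.28 ± 0.10 (limma adjusted p = 0.192 and 0.258). Purinergic receptor genes, 19 in number, had a median difference of 0.03, with P2ry13 at 0.27 ± 0.12, P2rx5 at -0.29 ± 0.13 and P2ry12 at -0.19 ± 0.11 (limma adjusted p between 0.349 and 0.465).

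**Figure D4:**
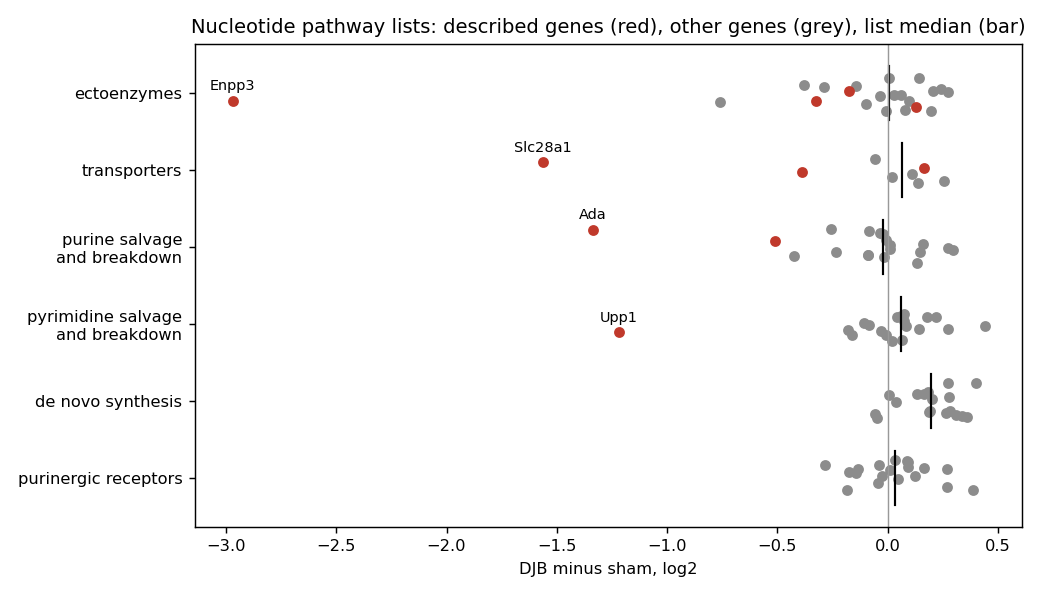
Difference DJB minus sham on the log2 scale for the 104 measured genes of 6 pathway lists; the 10 genes of the report are red, the others grey, vertical bars are list medians, and height within a list is random. The 4 named points, from -2.97 to -1.22, lie left of all other genes.

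The genes most like Enpp3 over the arrays are given as a description. Among 461 genes with a range of at least 1 over the arrays, Gpr155, the sphingomyelin-digesting enzyme gene Enpp7, Fmo4, the lipoprotein receptor gene Scarb1 and the glucuronosyltransferase gene Ugt2a3 had the highest Pearson correlations with Enpp3 over the 6 arrays, from 0.980 to 0.989. These are set mainly by the step between the groups, since all 5 fell, by 0.92, 3.66, 1.03, 0.90 and 2.58 on the log2 scale in that order.

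Within the DJB group, DJB 1 was highest and DJB 3 lowest in 5 of the 10 genes, Enpp3, Enpp1, Slc28a1, Slc29a1 and Upp1. This order was found in 31.3% of all genes. The median over all rows was 6.19 on DJB 1 and lay between 6.08 and 6.11 on the other arrays. With each array centred on its median the order held in 4 of the 10 genes, without Slc29a1, and in 21.2% of all genes. Among the sham rats, sham 3 was highest in 3 of the 10 genes, Nt5e, Slc28a2 and Ada, and in 38.5% of all genes. With centred arrays it was highest in 4 of the 10, Xdh included, and in 40.3% of all genes.

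The tissue was bulk ileum, in which fewer cells of a type and less RNA per cell cannot be told apart. Of 10 measured ileal enterocyte markers, 0 fell and 1 rose by limma, Slc10a2, the bile acid transporter of the lower ileum, at 1.73 ± 0.22 (adjusted p = 0.0106). The summed level of the 10, added on the linear scale and given as log2, was 16.24 to 16.27 in DJB rats and 16.06 to 16.22 in sham rats, without overlap. Such a sum follows the brightest rows, and the highest value on an array was 14.04 to 14.10 in DJB rats and 13.85 to 13.95 in sham rats. Of the 10 markers, 6 had higher means in DJB rats, with a median difference of 0.06. With another quantile normalisation 4 of the 10 were higher, with a median of -0.02. The labels do not say where along the ileum each piece was taken, and the part of position in the differences above was not tested. Of 9 mast cell and basophil markers, cells that carry Enpp3 in humans, none was called by limma, and 3, Mcpt1, Cpa3 and Kit, lay above the median of all rows. Their summed level was 10.75 to 11.00 in DJB rats and 11.08 to 11.49 in sham rats, without overlap, and its part in the fall of Enpp3 was not tested. Most of this sum came from Mcpt1, a mucosal mast cell protease, with 10.39, 10.59 and 10.30 in DJB rats, against 11.18, 11.05 and 10.65 in sham rats. Mcpt1 differed by -0.53 (limma adjusted p = 0.164). Of the 9 markers, 2, Mcpt1 and Cpa3, lay below all sham values in DJB rats, which held for 6.56% of all genes. Another 2, Tpsb2 and Hdc, had higher means in DJB rats. By limma 0 of the 58 markers in 9 lists fell, and at an unadjusted p under 0.05 3 were lower and 12 higher, against 4.45% and 9.82% of all genes. The lower ones were the mast cell markers Mcpt1 and Cpa3 and the red blood cell marker Hbb. The higher ones included fibroblast markers, 4 of 6 with a list median of 0.52, and macrophage markers, 3 of 6 with a list median of 0.27. They also included the enterocyte markers Epcam, Fabp6 and Slc10a2, 3 of 10 with a list median of 0.06. The summed fibroblast level was 11.86 to 12.42 in DJB rats and 11.67 to 12.07 in sham rats. The summed macrophage level was 12.30 to 12.72 in DJB rats and 12.56 to 12.83 in sham rats. Most of the macrophage sum came from the bright row of Lyz2, with 12.26, 12.50 and 11.94 in DJB rats, against 12.65, 12.43 and 12.36 in sham rats. Lyz2 differed by -0.25, and the other 5 macrophage markers had higher means in DJB rats. The 4 B cell markers measured had a summed level of 7.31 to 8.73 in DJB rats and 7.89 to 8.94 in sham rats, and 7 endothelial markers 9.65 to 10.15 in DJB rats and 9.88 to 9.98 in sham rats. The haemoglobin gene Hbb had 8.70, 7.80 and 7.67 in DJB rats, against 9.30, 8.65 and 9.21 in sham rats, with overlap, and was not called (limma adjusted p = 0.152). The part of these cell types in the 4 falls was not tested.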

How the data were processed

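Ileum RNA of 3 DJB and 3 sham rats was measured on Affymetrix rat whole-transcript arrays, 1 per rat, with rats numbered 1 to 3 within each group by the labels. The deposited table gives log2 expression values, 29214 rows by 6 arrays, made with RMA (no version stated) per the submitters' processing notes. Columns were matched to samples by accession. The log2 values were used as the authors deposited them. Equalised arrays hide a change shared by most genes, and dim rows understate changes. The number of arrays limits the precision. Labels call the rats biological replicates and give no batch.

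Rows were named from the array's platform annotation. Of them, 15310 carried 1 symbol, 323 several and 13581 none, and 527 genes had several rows, of which the row with the highest mean was kept. RefSeq (GRCr8) served for gene order and promoters. No source used here gives the array's genome build.

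DJB was tested against sham with limma 3.58.1 in R 4.3.3 (lmFit, eBayes, no covariate, two-sided, Benjamini-Hochberg over 14506 genes, threshold 0.05), which was tested on simulated data. Exact permutation tests used scipy 1.17.1, and figures matplotlib 3.10.9 in Python 3.11.15. The members and gene lists were chosen with earlier results of these data known. Named genes were the 10 members, per list every called gene and the 3 of lowest p, and the 5 most correlated with Enpp3. Med23, Mcpt1, Cpa3, Kit, Slc10a2, Hbb and the genes of the closing section were named after their values were seen. Alternative settings used the replicate number as a block, another quantile normalisation, arrays centred on their medians, dim genes left out, eBayes with trend and robust, the mean of a gene's rows, all rows tested, and each array left out.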

Additional observations from a re-analysis of the deposited data

How the results depend on the processing

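The call of Enpp3 held under all 13 alternatives. The calls of Slc28a1, Ada and Upp1 did not. With trend and robust variance Slc28a1 (-1.56, adjusted p = 0.109) and Upp1 (-1.22, adjusted p = 0.0561) were not called, which left 2 of the 10 genes lower. With all rows tested, which adjusts over more rows, Slc28a1 (-1.56), Ada (-1.34) and Upp1 (-1.22) were not called, with adjusted p of 0.0888, 0.0577 and 0.0839, which left 1. The labels state no pairing of same-numbered rats, whose deviations from their group means had correlations of 0.01, -0.12 and -0.15. With 3 arrays per group these cannot show whether the rats were paired. With the replicate number as a block Upp1 was not called (-1.22, adjusted p = 0.0528). Without 1 array, between 1 and 3 of the 10 genes fell, and the difference lay between -1.86 and -1.35 for Slc28a1, -1.54 and -1.08 for Ada, and -1.45 and -0.96 for Upp1. Nt5e ranged from -0.65 to 0.20 and Slc28a2 from -0.70 to 0.10, with the sign turned without sham 3, and neither was called in any setting. Over all genes, 57 rose and 55 fell. These counts were 27 and 23 with the block, 129 and 96 with dim genes left out, 189 and 124 with trend and robust variance, and between 22 and 38 and between 10 and 70 without 1 array. With 3 arrays per group the intervals of Nt5e and Slc28a2 are too wide to exclude a change of 1 log2 unit downward.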

Other observations

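On every array, sham 3 included, a few genes stood above both other arrays of the group. On sham 3, 9 of the 14506 genes lay at least 1 log2 unit above both other sham arrays, and Nt5e and Slc28a2 were 2 of them. The same 9 held Alpi, the brush border phosphatase that strips phosphate from nucleotides and other substrates, with 10.25, 10.57 and 9.27 in DJB rats, against 9.79, 9.23 and 11.51 in sham rats. They also held Fgf19, the bile acid responsive hormone gene in the title of the series, with 6.59, 8.28 and 5.79 in DJB rats, against 5.03, 5.32 and 6.35 in sham rats. The others were Btbd16, Amy1, Or4f59, the glucose-6-phosphatase gene G6pc1 and the sulfurtransferase gene Tst, and none of the 9 was called by limma between the groups (adjusted p between 0.124 and 0.930). Of the 9, Nt5e, Slc28a2, Alpi, Tst and Fgf19 were highest on DJB 2 among the DJB rats. For Slc28a2 the margin was small, with 9.20 on DJB 2 against 9.10 on DJB 1 and 9.08 on DJB 3. The share of all genes highest on DJB 2 was not counted, so this order is given as a description. The number of genes at least 1 log2 unit above both other arrays of the group was 25 on DJB 1, 2 on DJB 2, 14 on DJB 3, 9 on sham 1 and 5 on sham 2.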
